A study of Mus musculus with 32 samples.

Results

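RNA-seq of whole kidneys at E18.5, shortly before birth, compared 4 ENL mutant libraries with 2 ENL WT libraries, 6 of the 32 samples of the series. They were chosen by their labels alone, as the unsorted kidneys in which Cre is driven by Six2. ENL, the product of the Enl gene (also named Mllt1), is a chromatin reader, and the series asked what mutations of its reader domain, first found in Wilms tumor, do to the developing kidney. The WT kidneys carried Six2-TGCtg/+;Enl+/+ (2 libraries), the T1 mutants Six2-TGCtg/+;EnlT1/+ (2 libraries) and the T3 mutants Six2-TGCtg/+;EnlT3/+ (2 libraries). T1 is a small insertion and T3 a small deletion in the YEATS domain, each on 1 of the 2 Enl alleles, in C57BL/6J mice. All 6 kidneys therefore carried the Six2-TGC transgene, a bacterial artificial chromosome that makes a GFP-tagged Cre from the Six2 promoter and also holds a copy of Six3. Cre removes a floxed cassette that encodes wildtype ENL, so the mutant protein is made only in nephron progenitors that have expressed the transgene and in their descendants. Stroma, vessels, blood and the ureteric tree arise from other lineages, and a whole kidney mixes all of these cells.

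Nephrons, the filtering units of the kidney, arise from SIX2-positive progenitors of the cap mesenchyme around the tips of the ureteric bud. Progenitors either renew themselves or commit, form the renal vesicle, and elongate into podocytes, proximal tubule, loop of Henle and distal tubule, while the ureteric bud gives rise to the collecting ducts. ENL binds acetylated histones through its YEATS domain and works with the super elongation complex and with DOT1L, which promote transcription elongation, and Hox genes are well-known targets of these complexes.

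Total counts ran from 106005614 to 157266455 per library, and the mitochondrial share of counts was 6.35% in WT replicate 1, 2.73% in WT replicate 2 and 3.89% to 5.22% in the mutants. No label says whether the libraries of a genotype came from different animals, so the p-values measure the spread between these libraries. Xist RNA was present (over 1 CPM, the unit of counts scaled to the size of each library) in WT replicate 2 and in both T3 libraries, and absent from WT replicate 1 and both T1 libraries. Embryo sex and allele thus cannot be told apart in T3 against T1, and X- and Y-linked genes were left out of all counts below. WT replicate 2 also stood apart by skeletal muscle RNA: the 10 tested genes of that list summed to 69.2 CPM there, to 7.93 CPM in WT replicate 1 and to 7.02 to 11.5 CPM in the mutants. Markers of the labelled tissue were present in both WT libraries, among them Lrp2 of the proximal tubule (956 and 1022 CPM), Slc12a1 of the loop of Henle (629 and 686 CPM) and Nphs1 of podocytes (38.2 and 47.3 CPM).

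Of 23024 autosomal genes with enough counts to test, 905 (3.93%) rose and 1313 (5.7%) fell in the mutants, in edgeR's quasi-likelihood test (adjusted p below 0.05, with a change of more than 1.5-fold). The median log2 fold change of all tested genes was -0.01. Of the genes that passed, 753 and 1091 were protein-coding. The decreases were the larger in size, with 350 genes that fell and 182 that rose by over 4-fold. The genes that fell made up 6.49% and 5.88% of CPM in the WT libraries and 2.56% to 2.89% in the mutants, and the genes that rose made up 0.733% and 0.775% in WT and 1.32% to 1.47% in the mutants. In 898 of the 905 and 1305 of the 1313 all 4 mutant libraries lay beyond both WT libraries, as they did for 17.6% and 22.1% of all tested genes. When each library was left out in turn, 542 of the 905 and 913 of the 1313 passed every time, and none changed sign. An exact permutation test on 4 against 2 libraries cannot give a p below 0.0667, so no single-gene permutation test is given.

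**Figure D1:**
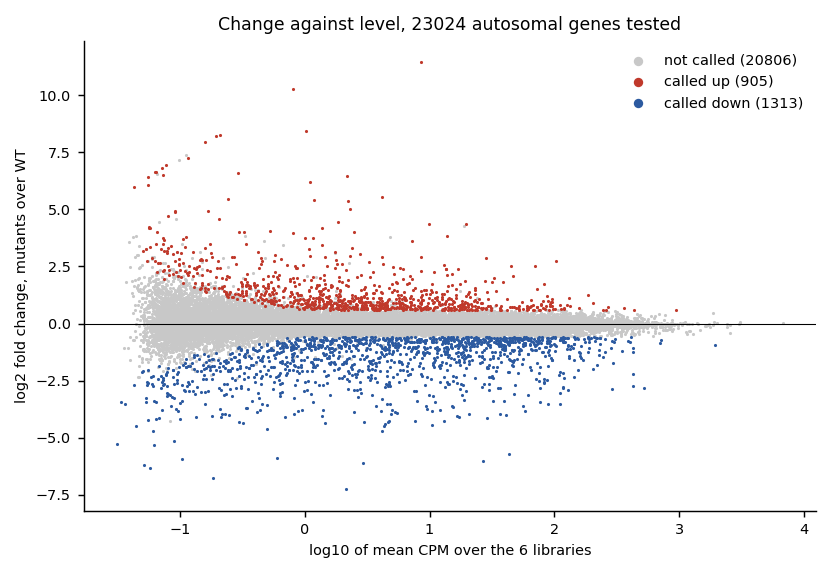
Log2 fold change of the 4 mutant over the 2 WT libraries (y axis) against the log10 of the mean CPM over the 6 libraries (x axis) for the 23024 autosomal genes tested, 1 point a gene. The 1313 genes called down (blue) reach high levels, whereas the largest increases among the 905 genes called up (red) lie at low levels.

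Each allele was also set against the same 2 WT libraries, so these 2 comparisons share their controls. With T1, 666 genes rose (2.89%) and 1139 fell (4.95%), and with T3, 1005 rose (4.37%) and 1235 fell (5.36%). With scaling by library size alone, T3 had more genes up (1260) than down (1064). Among the genes called for both alleles together, 578 of the 905 and 986 of the 1313 passed with each allele alone. Compared directly, no gene passed between T3 and T1 in either direction (0% of 23024), although 1119 genes were higher and 526 lower in T3 at an unadjusted p under 0.05. DESeq2 called 48 genes higher and 13 lower in T3, and edgeR's exact test 59 and 15. To set the alleles beside WT libraries of the same Xist status, the mean of T1 was compared with WT replicate 1 and that of T3 with WT replicate 2. These differences kept the sign of the call in 905 of 905 and 905 of 905 genes that rose, and in 1312 and 1313 of 1313 that fell, and they exceeded 1.5-fold in both for 725 (80.1%) and 1092 (83.2%). The calls had used the same libraries, so these shares are a description.

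The largest increases were in genes close to silent in WT kidneys. Sst, which encodes the peptide hormone somatostatin (chromosome 16, 23889573 to 23890958, mm10), had 0 and 1 counts in the WT libraries and 1583, 1228, 1733 and 1653 in T1 replicates 1 and 2 and T3 replicates 1 and 2. This is 10.1, 10.4, 16.2 and 14.6 CPM in the mutants. Over all counts the mutants held 3530 times the WT level, with a 95% Clopper-Pearson interval of 633 to 139445 that covers counting error only. Syndig1l, a gene related to a regulator of synapse formation, rose from 1 count in both WT libraries together to 767 in the mutants, 437 times the WT level (interval 78.2 to 17278). The other low genes with the largest increases included Hyal6, a hyaluronidase gene (WT 0.0538 and 0.0198 CPM, mutants 3.38, 3.27, 3.14 and 3.15 CPM, log2 fold change 6.47, SE 0.29, adjusted p = 1.39e-05), March4, a ubiquitin ligase gene (log2 fold change 6.20, SE 0.32, adjusted p = 2.13e-05), and Defb28, a beta-defensin gene (log2 fold change 5.00, SE 0.24, adjusted p = 1.51e-05). Mutant and WT libraries were far apart in each of them, though with so few WT counts the log2 fold changes of Hyal6 and March4 ran from 5.91 and 5.72 without WT replicate 2 to 7.29 and 6.87 without WT replicate 1.

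Some of these genes are best known from neurons or cartilage. Kcna1, a potassium channel gene, stood at 0.184 and 0.264 CPM in WT and at 3.37, 3.29, 3.83 and 4.01 CPM in the mutants (log2 fold change 4.00, SE 0.19, adjusted p = 1.63e-05). Cnmd, which encodes the cartilage protein chondromodulin, rose from 1.39 and 1.44 CPM to 18.7 to 21.7 CPM with the narrowest error among the largest increases plotted by library (log2 fold change 3.83, SE 0.11). Cdh7, a cadherin gene, and Fam135b rose by 4.17 and 4.45 on the log2 scale. Scgn, which encodes the calcium sensor secretagogin, was the least even: 0.0691 and 0.0659 CPM in WT, 4.72 and 5.04 CPM in T1, and 2.02 and 1.31 CPM in T3. The T3 and T1 values did not overlap, yet the difference between alleles missed the threshold (adjusted p = 0.299, edgeR).

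The 12 largest decreases were taken among protein-coding genes of at least 1 CPM on average with all mutants below both WT libraries. They spanned genes of several functions. Gm853 (chromosome 4, 130209109 to 130222401) fell from 7.84 and 9.13 CPM in WT to 0.0764, 0.178, 0.0747 and 0.168 CPM in the mutants (log2 fold change -6.11, SE 0.28, adjusted p = 1.39e-05). Kap, the kidney androgen-regulated protein gene of proximal tubules, differed between the WT libraries themselves (112 and 43.1 CPM) but stood at only 0.327 to 1.94 CPM in the mutants (log2 fold change -6.02, SE 0.49, adjusted p = 0.000161). Serpina6, the gene of corticosteroid-binding globulin, was even in WT (126 and 123 CPM) and uneven in the mutants (1.45, 3.16, 0.224 and 4.61 CPM, log2 fold change -5.73, SE 0.66, adjusted p = 0.000801). In both genes the lowest WT library lay far above the highest mutant. The values moved with single libraries, to -5.17 for Kap without WT replicate 1 and to -7.44 for Serpina6 without T3 replicate 2.

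Acox2, a peroxisomal oxidase of branched fatty acids and bile acid precursors, fell (log2 fold change -4.48, SE 0.45, and -3.85 without WT replicate 1), as did Acmsd, an enzyme of tryptophan breakdown (-4.46, SE 0.32), and Ugt3a2, a glycosyltransferase gene (-4.70, SE 0.25). A single number in parentheses after a gene is its log2 fold change of the mutants over WT, here and below. Etnppl, an enzyme of phosphoethanolamine breakdown (-4.35), and Serpina10, a serpin of the clotting system (-4.27), fell as well. Of the largest decreases, 4 belong to the Slc22 family of organic ion transporters: Slc22a28 (-4.32), Slc22a30 (-4.30), Slc22a22 (-4.27) and Slc22a13. Slc22a13 had the narrowest error of these decreases, at 34.7 and 35.5 CPM in WT and 1.63, 2.08, 1.78 and 1.94 CPM in the mutants (log2 fold change -4.24, SE 0.10, adjusted p = 2.37e-06). Slc22a28 and Slc22a30 lie on chromosome 19, Slc22a22 on chromosome 15 and Slc22a13 on chromosome 9. Reads shared between closely related members of the family could have been split by the counting, which was not tested.

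**Figure D2:**
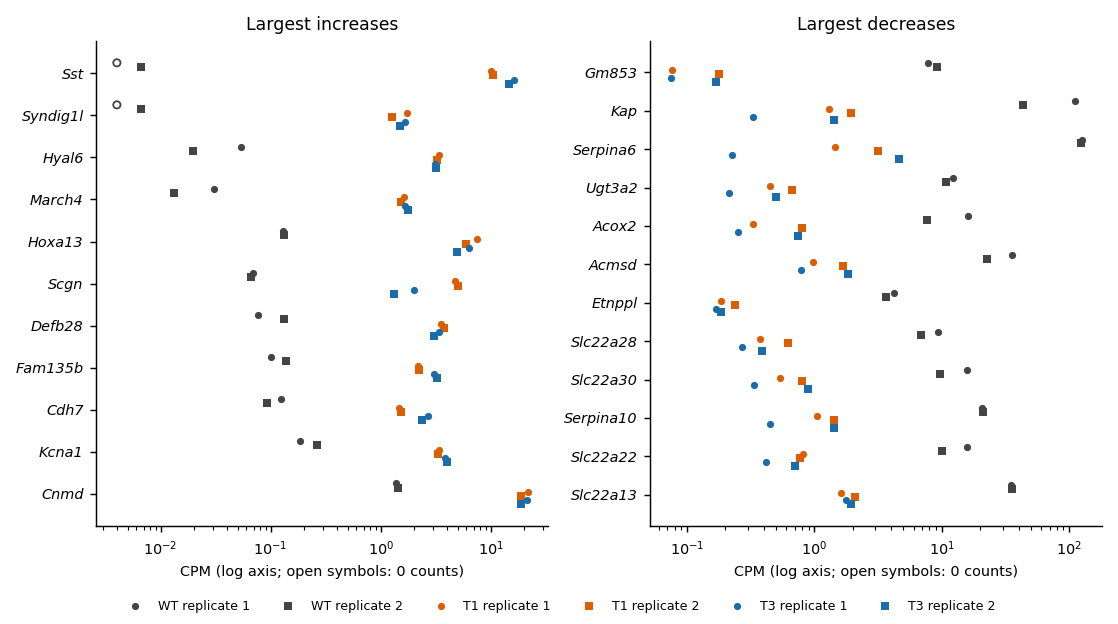
CPM on a log axis (x) in each of the 6 libraries for protein-coding genes with the largest increases (left) and decreases (right), 1 symbol a library, with open symbols for 0 counts set at a nominal position. Genes were chosen so that the 4 mutant symbols lie on one side of both WT symbols. In the mutants Sst runs from 10.1 to 16.2 CPM and Slc22a13 from 1.63 to 2.08 CPM.

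Per kb of exon, the largest gain in level was that of Sprr2f, a small proline-rich protein gene of epithelia, from 35.6 to 236 CPM per kb between the WT and mutant means (log2 fold change 2.72, SE 0.11, adjusted p = 9.13e-06). Ly6e, a gene of an interferon-induced membrane protein, rose by 0.70 on the log2 scale. Among the largest losses in level were those of Anpep, described with the proximal tubule below, and Gpx3, the plasma glutathione peroxidase made by proximal tubules (WT 943 and 436 CPM, mutants 309.5, 374, 269.6 and 212 CPM, log2 fold change -1.26, SE 0.26, adjusted p = 0.0125). Gpx3 did not pass with T1 alone (adjusted p = 0.0767), and without WT replicate 1 the log2 fold change of the mutants was -0.60.

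The targeted gene is given first among the members of named groups. Mllt1 (chromosome 17, 56892611 to 56935415) stood at 89.3 and 105 CPM in WT and 82.3, 79.7, 77.7 and 76.5 CPM in the mutants (log2 fold change -0.29, SE 0.07, adjusted p = 0.0179), a decrease under the fold threshold. Counts per gene add the wildtype and mutant alleles, so they do not check the genotype. Endogenous Six2 (chromosome 17, 85684277 to 85688274), the gene of the transcription factor that maintains the progenitors, fell from 39.5 and 45.9 CPM to 18.4, 18.8, 12.99 and 21.3 CPM (log2 fold change -1.26, SE 0.17, adjusted p = 0.00164). Six3, the neighbour that the transgene also carries, fell from 15 and 19.2 CPM to 12.7, 12.2, 7.97 and 11.7 CPM (log2 fold change -0.63, SE 0.16, adjusted p = 0.0278), but its call was lost in 6 of 18 settings. These include the fold change over 2, which a value of this size cannot pass, and the fit without WT replicate 2 (log2 fold change -0.42). Counts assigned to Six2 and Six3 may include transcripts of the transgene.

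Nephron progenitor genes fell as a group. Of 9 tested members, 6 fell and 0 rose, against 5.7% and 3.93% of all tested genes, and the median log2 fold change of the list was -0.73. The study of these samples had already reported Six2, Spock2, Eya1, Crym and Osr1 as lower, so these counts describe the list and do not test it. Beside Six2, Spock2, a matrix proteoglycan gene, fell from 177 and 211 CPM to 97.7, 96.7, 82.5 and 87.3 CPM (log2 fold change -1.10, SE 0.07, adjusted p = 5.53e-05), and Eya1, the phosphatase that partners with SIX2, from 42.2 and 54.6 CPM to 33.04, 29.3, 19.6 and 26.9 CPM (log2 fold change -0.85, SE 0.14, adjusted p = 0.00499). Gdnf, the signal by which the cap mesenchyme drives branching of the ureteric bud, fell from 40.2 and 42.4 CPM to 27.1, 24.3, 20.02 and 26.3 CPM (log2 fold change -0.76, SE 0.11, adjusted p = 0.00216). Crym and Osr1 also fell (-0.72 and -0.73), and Meox1 was lower within the fold threshold (-0.33). The integrin gene Itga8 (-0.07, adjusted p = 0.543) and the zinc finger gene Sall1 (0.17, adjusted p = 0.186) did not pass, with overlapping libraries. With any one library left out, 6 members again fell and 0 rose.

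Genes of committing progenitors and nascent nephrons went the other way in part. Of 12 tested members 4 rose and 0 fell (median 0.30). The study of these samples had already reported Wnt4, Sfrp2, Bmper and Tmem100 as raised, so these counts too are a description. Sfrp2, a secreted Wnt modulator, rose from 52.3 and 66.9 CPM to 121, 122, 108 and 107 CPM (log2 fold change 0.94, SE 0.09, adjusted p = 0.000389, 16.1% of its exon length shared, that is, overlapped by another gene). Wnt4, the signal that makes progenitors become epithelium, rose from 99.8 and 126 CPM to 183, 193, 187 and 166 CPM (log2 fold change 0.69, SE 0.10, adjusted p = 0.00232). Tmem100 (0.78) and the BMP regulator Bmper (0.71) rose as well. Lhx1, a transcription factor of the renal vesicle, was lower at -0.52 (adjusted p = 0.0429) within the fold threshold, while the Notch genes Jag1 (-0.08), Dll1 (0.21) and Hes5 (0.27) did not pass. Without WT replicate 1, Wnt4 and Bmper were under the fold threshold (0.54 and 0.58), and 2 members rose and 1 fell. In summed level, progenitor genes stood at 688 and 790 CPM in WT and 508 to 614 CPM in the mutants, and genes of committing cells at 792 and 1008 CPM in WT and 1025 to 1176 CPM in the mutants.

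**Figure D3:**
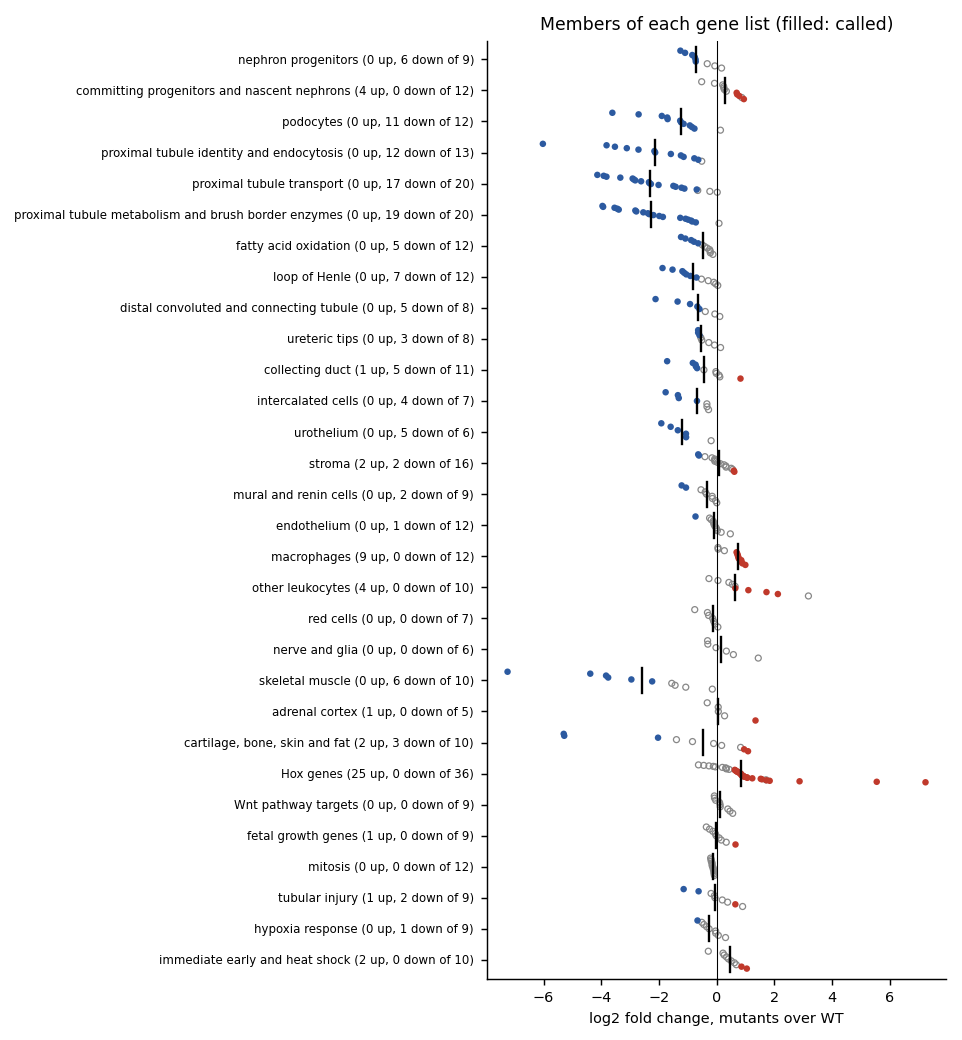
Log2 fold change of the mutants over WT (x axis) for each tested autosomal member of the 30 gene lists (rows), with members called up in red, called down in blue and not called as open circles, and a black bar at the median of each list. By their medians podocyte and proximal tubule lists lie to the left of 0 and Hox genes and macrophage genes to the right. Endothelial genes gather around 0, and mitosis genes lie just to its left.

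Podocytes are the cells that wrap the glomerular capillaries and hold the slit diaphragm. Of their 12 tested genes 11 fell and 0 rose (median -1.25). Nphs1, the gene of the slit diaphragm protein nephrin, fell from 38.2 and 47.3 CPM to 6.07, 7.26, 6.20 and 6.72 CPM (log2 fold change -2.71, SE 0.11, adjusted p = 9.13e-06, 11.8% of its exon length shared). Mutant and WT libraries were separated by several fold, with little spread among the mutants. Podxl, the gene of the surface sialoprotein podocalyxin, fell from 508 and 586 CPM to 161, 173, 175 and 159.5 CPM (log2 fold change -1.71, SE 0.07, adjusted p = 1.19e-05), and Ptpro, a podocyte phosphatase gene, fell as well (-1.90). The glomerular basement membrane genes Col4a3 and Col4a4 fell (-1.70 and -0.86), as did the transcription factor gene Lmx1b (-1.24). Plce1, a phospholipase gene that is also expressed elsewhere, was the exception (0.13, adjusted p = 0.312). In a whole kidney, fewer podocytes and less RNA per podocyte cannot be told apart, and the same holds for every cell type below.

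The proximal tubule, which reclaims most of the filtrate, held larger losses than the other nephron segments listed, by the medians of its 3 lists. Of 13 tested genes of identity and endocytosis 12 fell (median -2.13), of 20 transport genes 17 fell (median -2.30), and of 20 genes of metabolism and brush border enzymes 19 fell (median -2.26), with 0 members rising in any of the 3 lists. The summed level of the transport genes was 2446 and 1700 CPM in WT and 407 to 533 CPM in the mutants. The mutants overlapped neither WT library in any of the 3 sums, though in CPM the WT libraries differed among themselves by more than the mutants did in each.

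Among identity genes, Hnf4a, the nuclear receptor that drives proximal tubule maturation, fell from 277 and 243 CPM to 88.9, 100.5, 82.2 and 75.8 CPM (log2 fold change -1.59, SE 0.07, adjusted p = 1.50e-05). The endocytic receptor genes fell further: Lrp2 (megalin) from 956 and 1022 CPM to 129, 159, 175 and 142 CPM (log2 fold change -2.71, SE 0.11, adjusted p = 9.13e-06), and Cubn (cubilin) from 215 and 243 CPM to 17.9, 24.5, 18.7 and 18.6 CPM (log2 fold change -3.53, SE 0.11, adjusted p = 5.06e-06). Their partners Amn and Dab2 fell less (-1.15 and -0.78). Aqp1, the water channel of proximal tubule and descending thin limb, fell (-2.16), as did Spp2 (-3.82) and the protease gene Napsa (-3.11, 18.9% of its exon length shared).

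Transporters for phosphate, glucose and organic anions fell together. Slc34a1, the main phosphate cotransporter, stood at 813 and 548 CPM in WT and 92.4, 119.9, 83.9 and 79.5 CPM in the mutants (log2 fold change -2.87, SE 0.16, adjusted p = 2.54e-05, 11.7% of its exon length shared). Slc17a1, another phosphate and urate transporter, fell from 87.02 and 68.3 CPM to 4.38, 5.98, 2.23 and 5.30 CPM (log2 fold change -4.13, SE 0.28, adjusted p = 6.99e-05). Slc5a2, the glucose transporter SGLT2, fell from WT levels that differed widely (22.9 and 6.06 CPM) to 0.936, 1.26, 0.458 and 1.22 CPM in the mutants (log2 fold change -3.91, SE 0.51, adjusted p = 0.00151, 20.6% of its exon length shared, and -2.66 without WT replicate 1). The dicarboxylate transporter gene Slc13a3 fell (-3.82), as did the organic anion transporter genes Slc22a6 and Slc22a8 (-2.82 and -2.35). The other 3 members did not pass, namely Slc9a3, the sodium-hydrogen exchanger (-0.24, adjusted p = 0.171), Slc6a19 (-0.66, adjusted p = 0.214) and Slc13a1 (0.02, adjusted p = 0.960). For the latter pair WT replicate 1 was the highest of all 6 libraries and WT replicate 2 among the lowest.

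Among enzymes, Fbp1 of gluconeogenesis fell from 335 and 230.0 CPM to 18.46, 27.3, 23.8 and 27.8 CPM (log2 fold change -3.54, SE 0.18, adjusted p = 2.11e-05), as did G6pc (-3.39) and Pck1 (-2.38). Miox, which opens inositol for breakdown, fell as well (-3.96, SE 0.43). Both vitamin D hydroxylases fell: Cyp27b1, which makes the active hormone, from 122 and 71.5 CPM to 3.57, 6.20, 7.62 and 8.90 CPM (log2 fold change -3.93, SE 0.25, adjusted p = 4.96e-05), and Cyp24a1, which degrades it, from 46.4 and 9.98 CPM to 2.04, 3.40, 1.64 and 3.27 CPM (log2 fold change -3.45, SE 0.54, adjusted p = 0.00362). Cyp24a1 and Miox moved to -1.95 and -3.28 without WT replicate 1. The brush border peptidase gene Anpep fell from 1320 and 1131 CPM to 168, 189.7, 169.5 and 168 CPM (log2 fold change -2.82, SE 0.08, adjusted p = 3.99e-06). Cyp4b1 alone did not pass (0.08, adjusted p = 0.667).

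Fatty acid oxidation, on which proximal tubules depend for energy, showed smaller changes. Of 12 tested genes 5 fell and 0 rose (median -0.46). The medium-chain dehydrogenase gene Acadm fell from 226 and 208 CPM to 105, 106, 102 and 96.7 CPM (log2 fold change -1.09, SE 0.05, adjusted p = 1.52e-05), and the peroxisomal gene Ehhadh fell too (-1.24). So did Ppara, a nuclear receptor that drives these genes (-0.79). Its coactivator gene Ppargc1a (-0.22, adjusted p = 0.105) and the carnitine transferase gene Cpt1a (-0.13, adjusted p = 0.335) did not pass.

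HNF4 factors are known regulators of proximal tubule genes, so promoters were searched for 1 string of letters that they bind, in the 250 bases before each start in RefSeq (GRCm38.p6), on both strands. The HNF4 string CAAAGTCCA was found in 66 of the 13604 tested genes with a promoter in the table (0.485%), in 9 of 882 that fell (1.02%) and in 3 of 563 that rose (0.533%). Of the genes in the 3 proximal tubule lists 42 had a promoter there, of which only Slc3a1 held the HNF4 string (2.38%). These are counts of exact letters, not of binding sites. The promoter stretches of the 4 genes with the largest decreases among the 9 are shown. The other 5 were Treh, Gm36529, Rab11fip3, Pafah2 and Plcxd1. They were taken after their values had been seen, with the string in capitals on either strand.
Aadat: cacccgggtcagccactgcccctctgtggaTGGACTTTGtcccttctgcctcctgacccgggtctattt
Aspdh: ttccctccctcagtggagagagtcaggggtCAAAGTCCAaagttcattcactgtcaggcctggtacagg
Slc3a1: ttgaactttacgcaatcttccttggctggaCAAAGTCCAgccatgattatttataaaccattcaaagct
Agxt2: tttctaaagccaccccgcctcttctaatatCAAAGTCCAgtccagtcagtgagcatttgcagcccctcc
All 4 stretches lie on the plus strand at chr8:60506022-60506090 (string 72 bases before the start), chr7:44465353-44465421 (52), chr17:85028278-85028346 (39) and chr15:10358482-10358550 (67, from the farther of its 2 starts). Aadat, an aminotransferase gene of lysine and tryptophan breakdown, fell from 211 and 175 CPM to 17.8, 18.7, 15.1 and 19.2 CPM (log2 fold change -3.45, SE 0.10, adjusted p = 4.39e-06). Slc3a1, the subunit of the cystine transporter, fell from 153 and 109 CPM to 27.9, 37.9, 35.4 and 28.6 CPM (log2 fold change -2.01, SE 0.16, adjusted p = 0.000145, 26.5% of its exon length shared). Agxt2, a mitochondrial aminotransferase gene, fell (-1.68), as did Aspdh from the lower level of 2.21 and 1.63 CPM (-2.08).

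**Figure D4:**
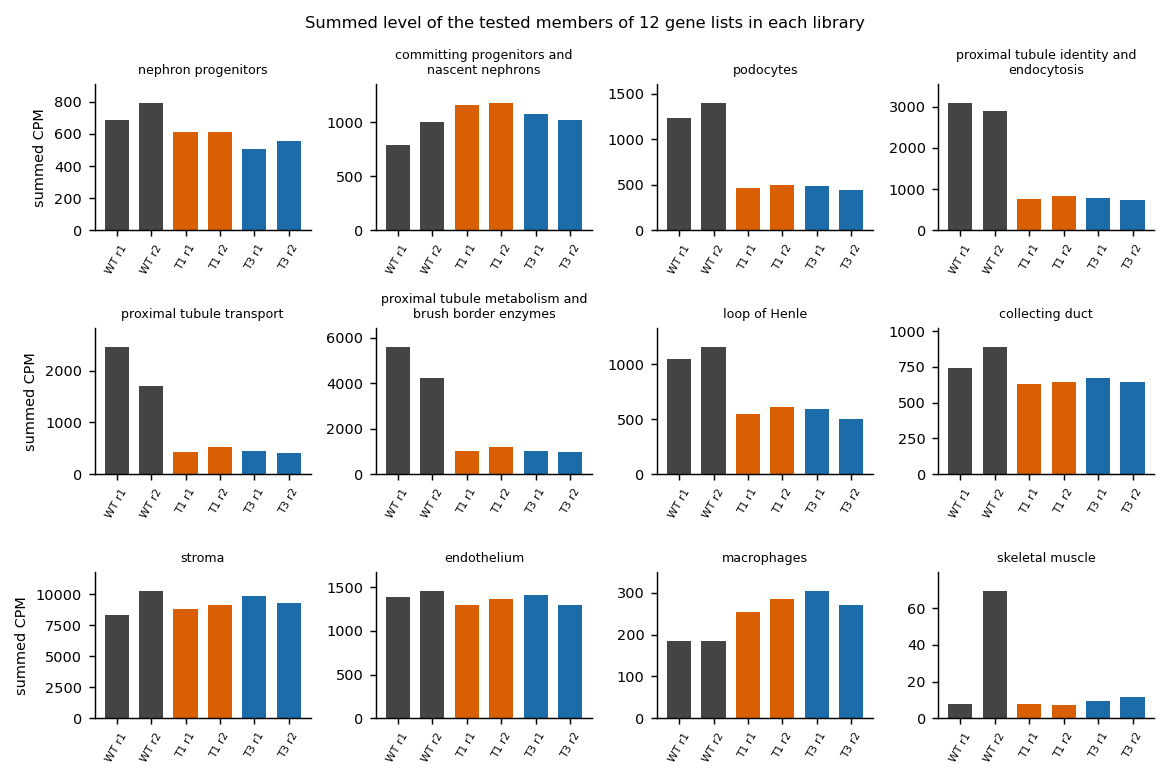
Summed CPM of the tested members (y axis, linear from 0) of 12 gene lists in each of the 6 libraries (x axis, r1 and r2 for replicates 1 and 2). Podocyte and proximal tubule sums are lower in all 4 mutants than in both WT libraries, macrophage sums are higher, stroma and endothelium sums overlap, and the skeletal muscle sum is high in WT replicate 2 alone.

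Distal segments fell to a lesser degree. Of 12 tested genes of the loop of Henle 7 fell and 0 rose (median -0.81). Umod, the uromodulin gene of the thick ascending limb, fell from 56.8 and 69.4 CPM to 15.7, 18.3, 18.96 and 15.8 CPM (log2 fold change -1.88, SE 0.11, adjusted p = 3.57e-05, 19.5% of its exon length shared), and the sodium-potassium-chloride cotransporter gene Slc12a1 from 629 and 686 CPM to 312, 348, 322 and 285 CPM (log2 fold change -1.06, SE 0.08, adjusted p = 9.77e-05). The growth factor gene Egf fell (-1.53), as did the tight junction genes Cldn19 and Cldn10 (-1.19 and -1.13). Cldn16 (0.04) and Irx1 (-0.10) did not pass. In the distal convoluted and connecting tubule 5 of 8 tested genes fell and 0 rose (median -0.63). Slc12a3, the thiazide-sensitive cotransporter, fell from 92.9 and 80.7 CPM to 17.2, 22.6, 19.4 and 20.7 CPM (log2 fold change -2.12, SE 0.11, adjusted p = 1.95e-05), as did the calcium channel gene Trpv5 (-1.36) and the magnesium channel gene Trpm6 (-0.92). Calb1, the calcium buffer calbindin, fell (-0.67) and lost its call without WT replicate 2 (-0.54), without which 3 members of the list passed. The WNK kinase gene Wnk4 (-0.06) and the kallikrein gene Klk1 (0.11) did not pass.

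Marker genes of the ureteric tree were measured too, although cells of this tree do not arise from SIX2-positive progenitors. In the sorted Six2-lineage cells described below, 5 of 11 collecting duct and 5 of 7 intercalated cell genes fell with T1 and 0 rose. There 1 of 6 urothelium genes fell and 2 rose, and 2 of 8 ureteric tip genes fell and 1 rose. Over all genes tested there 5.46% fell and 6.29% rose. Which cells lost these RNAs was not tested. In whole kidney 5 of 11 tested collecting duct genes fell and 1 rose (median -0.44), against 5.7% and 3.93% of all tested genes. Aqp2, the vasopressin-regulated water channel, fell from 119.7 and 152 CPM to 31.4, 43.05, 42.7 and 49.3 CPM (log2 fold change -1.72, SE 0.14, adjusted p = 0.000138), as did Hsd11b2 (-0.73), which shields the mineralocorticoid receptor from glucocorticoids, the sodium channel gene Scnn1g (-0.68) and Elf5 (-0.83). Krt19, a keratin gene of simple epithelia, rose from 39.6 and 48.8 CPM to 81.6, 71.2, 84.1 and 76.2 CPM (log2 fold change 0.82, SE 0.10, adjusted p = 0.00102), whereas Krt8 (0.08) and Krt18 (-0.03) did not pass. Of 7 intercalated cell genes 4 fell (median -0.68), led by Slc26a4, the chloride-bicarbonate exchanger pendrin (-1.77), and the proton pump subunit genes Atp6v1g3 (-1.34) and Atp6v0a4 (-1.31). Of 6 urothelium genes 5 fell (median -1.21), among them Upk1b from 23.4 and 21.5 CPM to 7.71, 9.64, 8.24 and 9.67 CPM (log2 fold change -1.35, SE 0.11, adjusted p = 0.000149) and the basal cell genes Krt5 (-1.92) and Trp63 (-1.06). Of 8 genes of ureteric tips 3 fell (median -0.53): Ret, the receptor of the Gdnf signal (-0.60), its coreceptor Gfra1 (-0.64) and Wnt9b (-0.64). None of these 3 passed without WT replicate 2 (-0.43, -0.49 and -0.36) or with scaling by library size alone. Ret lay at the fold threshold and was called in 7 of 18 settings, which include a fold change over 2 that its value cannot pass. Neither Ret nor Gfra1 passed without T3 replicate 1.

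Stromal and endothelial genes had medians near 0. Of 16 stromal genes 2 rose and 2 fell (12.5% each, against 3.93% and 5.7% of all tested genes, median 0.08), and of 12 endothelial genes 1 fell (8.33%, median -0.08). Tcf21, a transcription factor of stroma and podocytes, rose from 177 and 209.8 CPM to 253, 292, 308 and 317 CPM (log2 fold change 0.59, SE 0.09, adjusted p = 0.00288), and the receptor gene Pdgfra rose by 0.61. The retinoic acid synthesis gene Aldh1a2 and the matrix gene Tnc fell (-0.62 and -0.64). All 4 were close to the fold threshold: the increases were not called without WT replicate 1 (0.48 and 0.48), nor the decreases without WT replicate 2 (-0.45 and -0.51). The collagen genes Col1a1 (-0.07) and Col3a1 (-0.07) did not pass. Among endothelial genes, Ehd3, which marks glomerular capillaries, fell from 66.4 and 59.7 CPM to 35.8, 38.7, 38.9 and 37.7 CPM (log2 fold change -0.74, SE 0.06, adjusted p = 0.000186), while Pecam1 (-0.07), Cdh5 (0.02) and Kdr (-0.09) did not pass. Of 9 genes of mural and renin cells 2 fell (median -0.35). Ren1, the renin gene, fell from 580.1 and 547 CPM to 211, 267, 275 and 219 CPM (log2 fold change -1.21, SE 0.12, adjusted p = 0.000320), as did Myh11, the smooth muscle myosin gene (-1.06, SE 0.09).

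Macrophage genes rose. Of 12 tested members 9 rose and 0 fell (median 0.74), and the counts were 9 and 0 again with any one library left out. C1qc, a subunit of complement C1q, rose from 10.7 and 11.1 CPM to 16.8, 21.5, 27.3 and 22.2 CPM (log2 fold change 0.99, SE 0.13, adjusted p = 0.00129), and Adgre1, the F4/80 antigen, from 8.996 and 8.12 CPM to 14.1, 16.8, 16.5 and 16.03 CPM (log2 fold change 0.89, SE 0.10, adjusted p = 0.000584). Cd68, Cx3cr1 and the mannose receptor gene Mrc1 rose by 0.85, 0.76 and 0.71. Csf1r, the receptor on which macrophages depend, did not pass (0.05, adjusted p = 0.601, 15.1% of its exon length shared), nor did Lyz2 (0.27) and Itgam (0.04). The sum over the list was 184 CPM in each WT library and 255 to 303 CPM in the mutants. Among 10 tested genes of other leukocytes 4 rose and 0 fell (median 0.64), and all 4 belong to antigen presentation by MHC class II. Cd74, the invariant chain, rose from 4.57 and 4.05 CPM to 17.6, 19.8, 22.2 and 15.4 CPM (log2 fold change 2.12, SE 0.16, adjusted p = 0.000119), H2-Aa by 1.72, H2-Eb1 by 1.10 and H2-Ab1 by 0.64, which was not called without WT replicate 1 (0.57) or without T3 replicate 1. The B cell gene Cd79a (0.04) and the neutrophil genes S100a8 (0.64, adjusted p = 0.0535) and Ly6g (-0.27) did not pass, and Cd3e had too few counts to test.

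Hox genes specify position along the body axis, and the developing kidney normally expresses genes of the posterior groups among them. Of 36 tested members 25 rose and 0 fell (median 0.83). Hoxa13, a gene of the hindmost group (chromosome 6, 52257694 to 52260880), stood at 0.131 and 0.132 CPM in WT and 7.45, 5.95, 6.37 and 4.97 CPM in the mutants (log2 fold change 5.54, SE 0.22, adjusted p = 9.13e-06). Hoxc12 had 0 counts in both WT libraries and 82 in the 4 mutants, at least 15.6-fold higher when WT is set to 3 counts over both libraries. Hoxd12 rose from 4.68 and 5.85 CPM to 49.4, 47.8, 29.95 and 31.2 CPM (log2 fold change 2.87, SE 0.11, adjusted p = 8.13e-06), with T1 above T3 in every library. Among genes at higher levels, Hoxb9 rose from 99.8 and 97.9 CPM to 233, 219, 245 and 232 CPM (log2 fold change 1.23, SE 0.06, adjusted p = 1.39e-05) and Hoxa10 from 126 and 129 CPM to 235, 238, 251 and 244 CPM (log2 fold change 0.92, SE 0.05, adjusted p = 2.66e-05), and all 4 mutants lay well above both WT libraries.

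Within the Hoxa cluster the increases of Hoxa5 (1.84), Hoxa6 (1.72) and Hoxa3 (1.57) were larger than those of Hoxa9 (0.70) and Hoxa7 (0.34, within the fold threshold). Hoxa11 rose by 1.05 and has 34.98% of its exon length shared. In the Hoxc cluster Hoxc11 rose by 1.53 and Hoxc4, Hoxc6, Hoxc8 and Hoxc9 by 0.86, 0.84, 0.82 and 0.96. The Hoxd cluster was mixed. Hoxd11 rose by 0.78, but Hoxd8 was lower in all mutants within the fold threshold (133 and 136 CPM in WT, 105, 108, 93.5 and 89.1 CPM in the mutants, log2 fold change -0.45, SE 0.04, adjusted p = 0.000404), and Hoxd9 (-0.05) and Hoxd13 (-0.63) did not pass. Hoxb8 did not pass (-0.12). Leaving out any one library gave 23 to 26 Hox genes up and 0 down.

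Genes of growth and cell state were read in 6 lists. Over all tested genes 3.93% rose and 5.7% fell, the shares to set beside the few calls in each list. None of the 12 mitosis genes passed, although all 12 had values below 0 (median -0.14, Mki67 -0.19, Top2a -0.21). Without WT replicate 2 the median was 0.003. None of 9 Wnt pathway targets passed (median 0.12, from -0.08 for Axin2 to 0.55, with Lgr5 at 0.12). Their sum was 361 and 380 CPM in WT and 433 to 450 CPM in the mutants. With no fold threshold 3 of them rose and 0 fell, as did 1754 and 2772 of all tested genes. Among 9 fetal growth genes Igf2 rose (log2 fold change 0.65, SE 0.11, adjusted p = 0.00509), with 64.5% of its exon length shared, and H19, its imprinted neighbour, did not pass (-0.13). Without WT replicate 1 Igf2 was under the fold threshold (0.46). Of 9 genes of tubular injury, Spp1 (osteopontin) fell (-1.15, 18.8% of its exon length shared), as did Lcn2 (-0.63, but not without T3 replicate 1 or with scaling by library size alone), Vcam1 rose by 0.65 (0.51 and not called without WT replicate 1), and Havcr1, a sensitive marker of proximal tubule injury, did not pass (-0.08). Of 9 hypoxia genes 1 fell (Adm, -0.69, and -0.55 and not called without WT replicate 2), and Vegfa was lower within the fold threshold (-0.45). Of 10 immediate early and heat shock genes 2 rose, Junb from 3.89 and 5.30 CPM to 6.88, 8.21, 11.4 and 12.5 CPM (log2 fold change 1.04, SE 0.15, adjusted p = 0.00208) and Jun by 0.86.

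Lists of tissues next to the kidney were read for carried-over RNA, beside the 3.93% of all tested genes that rose and the 5.7% that fell. Of 10 skeletal muscle genes 6 fell (median -2.60), and the list moved with WT replicate 2. Myh8 stood at 0.0845 CPM in WT replicate 1, 12.5 CPM in WT replicate 2 and 0.00636 to 0.248 CPM in the mutants, and without WT replicate 2 its log2 fold change went from -7.25 to -1.01 (adjusted p = 0.584). Without that library 2 muscle genes fell, 1 rose and the median was -0.20, while 11 fell without WT replicate 1 and 2 fell when any mutant library was left out. None of 7 red cell genes passed (Hbb-bs -0.32, adjusted p = 0.382), although T3 replicate 1 held the highest sum, 6113 CPM, and T1 replicate 1 the lowest, 2332 CPM. None of 6 nerve and glia genes passed. Of 5 adrenal cortex genes Nr5a1, a steroidogenic transcription factor, rose (log2 fold change 1.33, SE 0.28, adjusted p = 0.0135), though not without T1 replicate 1, while Cyp11a1 (0.27) and Star (0.06) did not pass. Of 10 genes of cartilage, bone, skin and fat 2 rose (Sp7 and Lor) and 3 fell (Ibsp, Bglap and Krtdap), and each of the 5 except Sp7 was under 1 CPM in every library. Lor was not called when any one library was left out, and Bglap not when any library except WT replicate 2 was. The part of carried-over tissue in other calls was not tested.

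To see which whole-kidney effects also appeared within the lineage, the T1 effect was set against that in tdT+ cells sorted from Six2-TGC kidneys at E18.5, 3 WT and 3 T1 libraries that took no part in the calls above. These cells were sorted by a Cre-activated tdTomato reporter and made with another library kit, so kit and cell mixture cannot be told apart in a difference between the 2 kinds of sample. The overlap was first counted with the whole-kidney calls of both alleles together, although the sorted cells carried T1 alone. Of those genes tested in sorted cells, 485 of 879 that rose also rose there (55.2%, against 6.29% of all genes tested there). Of those that fell, 662 of 1301 also fell (50.9%, against 5.46%). Read the other way, 33.0% of the genes that rose in sorted cells were called up in whole kidneys, against 3.93% of all genes tested. Of those that fell in sorted cells 51.2% were called down, against 5.7%. Among the 879 and 1301 whole-kidney genes, 22 that rose fell in sorted cells and 27 that fell rose there. Over all genes tested in sorted cells 5.46% fell and 6.29% rose.

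In the joint fit of both kinds of sample 1.87% of genes rose and 3.66% fell with T1 in whole kidney. The T1 effect was higher in whole kidney than in sorted cells for 649 genes (2.66% of 24432) and lower for 746 (3.05%), by edgeR's quasi-likelihood test of the interaction at an adjusted p under 0.05 with no fold threshold. Podocyte genes were the clearest: in 11 of 12 (all but Lmx1b) the effect was higher in whole kidney, with medians of -1.19 there and -3.06 in sorted cells. The log2 fold change of Podxl was -1.69 in whole kidney and -4.57 in sorted cells (difference 2.89, SE 0.18, adjusted p = 1.79e-06). Of 20 proximal tubule transport genes 1 differed, Slc15a2, and the medians were -2.06 in whole kidney and -1.88 in sorted cells. Slc34a1 had log2 fold changes of -2.65 and -2.59, and the interaction test did not pass (adjusted p = 0.930). In the list of identity and endocytosis the effect was lower in whole kidney for Lrp2 (-2.75 against -1.61, adjusted p = 0.00192) and higher for Aqp1 (-2.10 against -3.36) and Pdzk1ip1 (-1.21 against -2.42). Of 9 progenitor genes 3 differed, each with a higher effect in whole kidney, namely Crym (-0.70 against -1.85), Osr1 (-0.75 against -1.77) and Itga8 (0.02 against -0.97). For Six2 itself the effects were -1.17 and -1.30, and their difference of 0.13 (SE 0.17) did not pass (adjusted p = 0.779).

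For Hox genes 26 of 35 effects were lower in whole kidney (medians 0.73 and 1.73), as for Hoxa11 (1.10 against 3.17, adjusted p = 1.63e-06), while Hoxa13 (5.69 against 6.24) and Hoxd12 (3.23 against 3.69) did not pass. Hoxd8 and Hoxb8 rose in sorted cells (0.83 and 1.09) and had values of -0.31 and -0.24 in whole kidney, and both interaction tests passed (adjusted p = 1.75e-05 and 3.75e-05). Macrophage and red cell genes, whose cells are outside the Six2 lineage, had higher medians in the sorted T1 libraries, where 9 of 12 and 5 of 7 rose. Of 12 macrophage genes 9 had a lower effect in whole kidney (medians 0.72 and 2.71), and 4 of 7 red cell genes did (medians -0.50 and 3.54). The part of such cells in other differences from the sorted libraries was not tested.

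**Figure D5:**
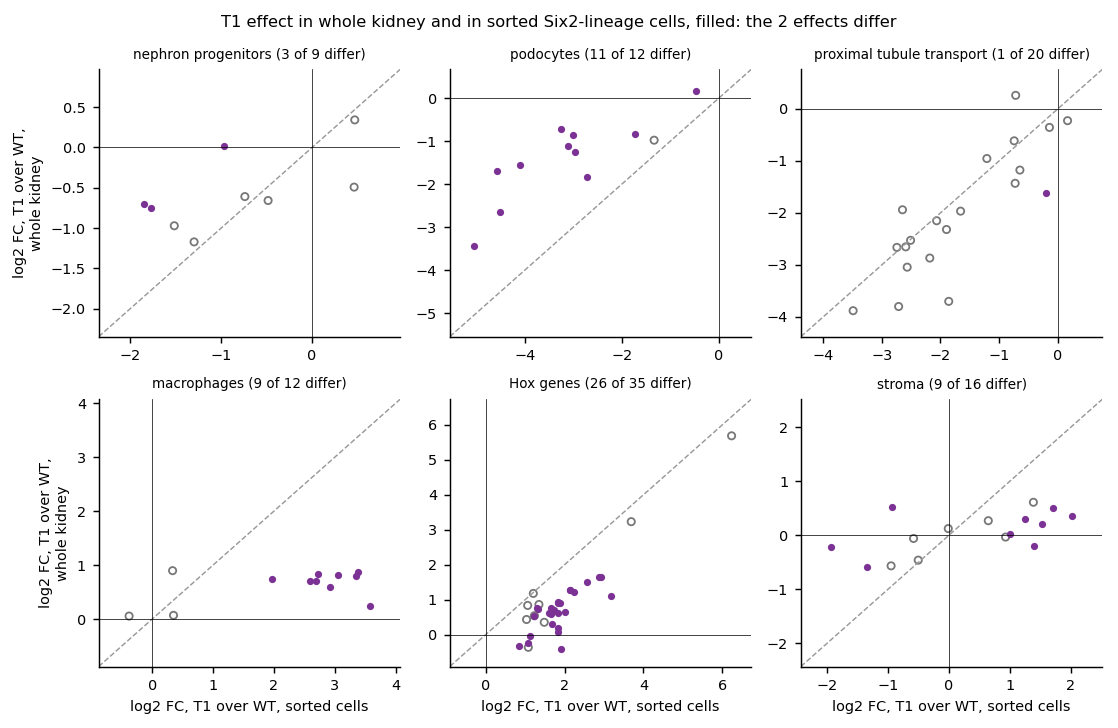
Log2 fold change of T1 over WT in whole kidney (y axis, 2 against 2 libraries) and in sorted Six2-lineage cells (x axis, 3 against 3) for the members of 6 gene lists, with genes whose effects differ in the interaction test filled and a dashed line at equal effects. Of the podocyte genes 11 of 12 lie above the line and differ, 1 of 20 transport genes differs, and 9 of 12 macrophage and 26 of 35 Hox genes lie below it and differ.

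Several single genes differed between whole kidney and sorted cells. Cxcl10, a chemokine gene induced by interferon, stood at 0.689 and 0.865 CPM in WT and 10.9 and 12.9 CPM in T1 whole kidneys, but at 20.8 to 26.5 CPM in sorted WT and 17.2 to 19.2 CPM in sorted T1 cells (difference 4.37, SE 0.20, adjusted p = 6.43e-07). With T3 it stood at 9.70 and 7.13 CPM in the fit of the 6 whole kidneys. Hyal6 and Sprr2f also rose in whole kidney (6.51 and 2.67) with values of 0.26 and 0.46 in sorted cells, and their differences passed (adjusted p = 0.0160 and 0.0158). Hyal6 was near the floor in the sorted libraries, at 0 to 0.237 CPM, so its value there is uncertain (SE 0.91). Sema3e, a guidance cue gene, fell in sorted cells (-2.52), and its value in whole kidney did not pass (0.36). Tnnt2, the cardiac troponin T gene, fell in whole kidney from 3.56 and 3.67 CPM in WT to 0.134, 0.144, 0.140 and 0.531 CPM in the mutants (log2 fold change -4.06, SE 0.37, adjusted p = 0.000261), while it rose in sorted cells (0.85). Without T3 replicate 2 the log2 fold change was -4.68. The WT libraries were at similar levels for Tnnt2, and whether its RNA came from carried-over tissue was not tested.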

How the data were processed

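RNA was sequenced from whole kidneys (2 WT, 2 T1 and 2 T3 libraries) and, for 1 comparison, from sorted tdT+ cells (3 WT and 3 T1). The authors deposited raw read counts per gene. As their methods and processing notes state, reads were aligned to mm10 with HISAT2 and counted with HTSeq without regard to strand, so a gene and an overlapping antisense gene cannot be told apart. The share of exon length that overlaps another gene is given for named genes where it passes 10%. Of 54752 identifiers 54723 had an annotation in the table used for names and coordinates, and the other 29 kept their identifiers.

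Low genes were removed with filterByExpr (count of at least 10, total of at least 15) and scaled by TMM, and genotypes were compared with the quasi-likelihood test of edgeR 4.0.16 in R 4.3.3 with 1 mean per genotype and Benjamini-Hochberg adjustment over all genes tested. X- and Y-linked genes stayed in the fit and were left out of calls and counts. CPM are counts scaled by library size and TMM factor, with a prior count of 2 on the log scale. The effects in whole kidney and sorted cells come from 1 joint fit of the WT and T1 libraries. The functions were tested on simulated data. Promoter sequences and start sites are from RefSeq (GRCm38.p6), with 32851 promoters in the table. Total counts were 106005614 to 157266455 per whole-kidney library, and intervals for low counts cover counting error only.

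Genes named were the 12 called protein-coding genes with the largest change in each direction among those of at least 1 CPM on average with all mutant libraries on one side of WT, the 6 in each direction with the largest difference in CPM per kb, up to 4 called members of each of 30 lists, Mllt1, Six2 and Six3, called genes of T3 against T1, and the 5 largest interaction differences in each direction. Further list members and the promoters shown were chosen after their values were seen. The members and lists were chosen with earlier results of these data known, so the counts of members called describe the lists and do not test them. The alternatives were other scalings and filters, DESeq2 1.42.0, edgeR's exact test, other fold thresholds, fits of fewer groups, a covariate for Xist RNA, a replicate block and each library left out in turn. Some results under these rules are not reported here. The other samples of the series were not analysed here.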

Additional observations from a re-analysis of the deposited data

Results flagged for a closer look

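In each of 129 named genes the 4 mutant libraries, which span both alleles, were searched for 1 library apart from the other 3, by the gap to its nearest neighbour as a share of the range (against Dixon's 95% critical value). A library stood apart in 10 genes, and chance gives such a result in about 1 group of 20. T1 replicate 2 was highest for Anpep (gap 0.92 of the range), Cubn (0.875), Vcam1 (0.894) and Adm (0.878). T3 replicate 1 was highest for Sprr2f (0.85) and Krtdap (1, from 1 count) and lowest for Calb1 (0.833). T3 replicate 2 was highest for Tnnt2 (0.973) and Myh8 (0.872) and lowest for H19 (0.947).

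The T1 effect differed between whole kidneys and sorted cells, higher in whole kidney for 649 genes and lower for 746 by edgeR's interaction test. The library kits differed between the 2 kinds of sample, so kit and cell mixture cannot be told apart. On the log2 scale the difference was 7.55 for Sst, 4.37 for Cxcl10, 2.99 for Aldh1a1, an enzyme of retinoic acid synthesis, 2.89 for Podxl and 2.88 for Sema3e. In the other direction it was -5.84 for Acta1, the skeletal muscle actin gene, -5.51 for Tnnt2, and -4.33, -4.32 and -4.04 for the haemoglobin genes Hbb-bs, Hbb-bt and Hba-a1. Acta1 lay in the list that was high in WT replicate 2. The size of the Sst difference depends on WT kidneys at the floor. In the joint fit Sst stood at 0 and 0.00618 CPM in WT whole kidneys and at 0.354 to 0.507 CPM in sorted WT cells. With T1 it stood at 9.58 and 9.96 CPM in whole kidneys and at 4.39 to 5.10 CPM in sorted cells.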

How the results depend on the processing

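Only 2 libraries per genotype limit these results, and the depth of each library does not remove that limit. With no fold threshold the mutants had 1754 genes up and 2772 down, T1 had 1155 and 2120, and T3 had 1685 and 2374. With a fold change over 2 the counts were 478 and 823 for the mutants, 369 and 718 for T1, and 556 and 754 for T3. T3 against T1 gave 190 genes up and 84 down with no filter on low counts, 48 and 13 in DESeq2, and 59 and 15 in edgeR's exact test. The interaction gave 1085 genes higher and 1203 lower in whole kidney with no filter, and 1157 higher and 979 lower in DESeq2. Which direction held more genes turned in DESeq2, with RLE size factors (735 and 663) and with genes over 1 CPM (780 and 773). It also turned without sorted T1 replicate 1 (638 and 594), sorted WT replicate 1 (929 and 909) or T1 replicate 1 of whole kidney. With no filter and with library size alone (532 and 852) it did not turn. With library size alone the mutants had 1097 genes up and 1158 down. With each library left out in turn, the mutants had 654 to 1021 genes up and 1095 to 1313 down, T1 374 (without T1 replicate 2) to 789 up and 685 (without T1 replicate 1) to 1225 down, T3 667 (without T3 replicate 1) to 1227 up and 908 to 1216 down, T3 against T1 0 to 11 up and 0 to 4 down, and the interaction 322 (without T1 replicate 2 of whole kidney) to 929 genes higher and 333 (without T1 replicate 1 of whole kidney) to 909 lower. A genotype left with 1 library was assumed to vary like the others.

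With scaling by library size alone Pecam1 changed sign (0.007084). Without WT replicate 2 so did H19 (0.01104, and -0.2461 without WT replicate 1), Mki67 (0.04923 and -0.3754), Top2a (0.0856 and -0.4384) and Hba-a1 (0.02665). Hba-a1 also did without T3 replicate 2 (0.087, and -0.3492 without T3 replicate 1). None of these 5 genes passed the test as reported. Over all named genes and alternatives of the mutants against WT, 2199 values kept direction and call, 102 lost the call, 3 gained it and 6 changed sign. The 102 include values under 2-fold, which lose the call by definition when a fold change over 2 is asked for. The cause of the other changes was not tested. With a replicate block the mutants had 841 genes up and 1251 down, T1 620 and 1078, T3 942 and 1158, T3 against T1 0 and 0, and the interaction 716 higher and 766 lower. Deviations of libraries with the same number correlated at 0.00975, 0.00162 and 0.0389 over genes, so the numbers were not taken to pair the libraries.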
